A study of Mus musculus with 8 samples.

Results

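The interferon-stimulated genes are genes that cells switch on when interferon reaches them, and 35 of them, listed by symbol, were followed here in mouse leukaemia cells in which the transcription factor KLF4 was induced. All 35 were found among the 47069 gene rows of the count files through their Ensembl IDs in GENCODE release M21, and 28 had enough reads to be tested among 14263 genes. The cells were GFP+ MLL-AF9 acute myeloid leukaemia cells, which carry a fusion oncogene that drives the disease, sorted from leukaemic mice whose strain label is C57BL/7, with bone marrow as the tissue. All 4 groups, labelled TetO-Klf4-AML at 0h, 6h, 12h and 24h, carried the same doxycycline-inducible Klf4 transgene and differed by time point only, with 2 libraries each. The labels do not give the event from which the hours count, and a control that received the drug but lacked the transgene was not analysed here, so the effects of doxycycline and of KLF4 cannot be told apart. Nothing in the labels says that the libraries of a time point came from separate mice, so each p-value reflects only how far these libraries differ, and that spread can be technical.

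Interferons are secreted signals of antiviral defence. Type I interferon binds a receptor made of IFNAR1 and IFNAR2, the kinases JAK1 and TYK2 then phosphorylate STAT proteins, among them STAT2, which joins IRF9 in a complex that binds the interferon-stimulated response element (ISRE) in the promoters of its target genes. Type II interferon acts through IFNGR1, IFNGR2, JAK1 and JAK2 on STAT proteins that bind another element, the gamma-activated site (GAS). The products of the target genes sense viral nucleic acid, block viral RNA and proteins, or feed back on the pathway, and in blood stem cells and leukaemia the same pathway is also known to act on proliferation.

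Gene counts came to between 20394546 and 26041347 per library. Klf4, the induced gene, was at 2.71 and 4.42 CPM (gene counts scaled to library size with TMM factors) at 0h, 152 and 151 CPM at 6h, 114 and 111 CPM at 12h, and 76.8 and 78.7 CPM at 24h. Of 10 markers of myeloid and MLL-AF9 leukaemia cells, among them Hoxa9, Meis1, Kit and Mpo, 9 averaged at least 1 CPM over the libraries and Csf1r did not. Some of these markers moved with time, in both directions. Cd34 was at 115 and 117 CPM at 24h, against 242 and 244 CPM at 0h. Kit and Meis1 were also lower, averaging 84.5 and 105 CPM at 24h, against 99.1 and 124 CPM at 0h. Itgam, Mpo and Hoxa9 were higher, averaging 63.5, 43.8 and 448 CPM at 24h, against 49.4, 38.4 and 413 CPM at 0h. No count was seen for Cd3e, Cd3g or Cd2 of T cells, Ms4a1 or Pax5 of B cells, Ncr1, Gzma or Klra8 of NK cells, or C1qa, C1qc or Marco of tissue macrophages. Siglech, the defining marker of plasmacytoid dendritic cells, the strongest producers of type I interferon, had 1 count in all libraries together. Of that list of 7, 4 averaged under 1 CPM, and its sum of 402 to 419 CPM at 24h, against 404 to 415 CPM at 0h, was nearly all Tcf4 and Runx2, while Cox6a2 averaged 7.59 ± 0.512 CPM at 24h, against 1.77 ± 0.415 CPM at 0h (SD, n = 2 each). Of the T cell list, 5 of 6 averaged under 1 CPM, and its sum of 9.52 to 9.65 CPM at 24h, against 6.88 to 7.13 CPM at 0h, was nearly all Lck. Of the B cell list, 5 of 6 averaged under 1 CPM, and its sum of 8.55 to 8.80 CPM at 24h, against 11.05 to 12.2 CPM at 0h, was mostly Cd79b, while Cd79a averaged 0.821 ± 0.0375 CPM at 24h, against 0.215 ± 0.0206 CPM at 0h. All 5 NK cell markers averaged under 1 CPM. The parts of these markers in the results were not tested. The share of fragments counted to no gene feature moved with time. It averaged 5.47 ± 0.316% in the 0h libraries, 6.21 ± 0.556% in those of 6h, 8.63 ± 0.452% in those of 12h and 9.15 ± 0.167% in those of 24h (SD, n = 2 each), and its part in the results was not tested.

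Most of the 28 tested genes passed the test in neither direction at a given time, and those that passed went both ways. Cmpk2 and Samd9l rose at 6h, 12h and 24h, Gbp3, Oas1a and Ifih1 fell by 12h and lay lowest at 24h, and Parp14, Ifi35 and Usp18 fell by 24h. Several genes best known as markers of an interferon response, namely Ifit1, Ifit3, Oasl1, Oasl2, Mx1, Mx2 and Rtp4, had too few reads to be tested. Isg15, Rsad2 and Usp18 were only slightly above that level.

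Among the 28 tested genes, 2 rose and 2 fell at 6h against 0h, which is 14.3% called, beside 18.3% of all genes tested (9.74% higher and 8.58% lower). At 12h against 0h, 3 rose and 6 fell, or 32.1%, beside 43.7% of all genes (22.1% higher and 21.6% lower). The count at 24h against 0h was 3 up and 7 down, or 35.7%, beside 50.9% of all genes (26.1% higher and 24.8% lower). A call means an adjusted p under 0.05 in edgeR's quasi-likelihood test with Benjamini-Hochberg adjustment over all 14263 genes, and the 3 comparisons share the 0h libraries. The members were thus called at a share no higher than that of genes at large in each of these comparisons. The differences in share were not tested. The median level of the tested members was 12.6 CPM, beside 21.9 CPM over all genes tested, and genes with fewer reads pass the test less readily. Their median log2 fold change was -0.04 at 6h, -0.09 at 12h and -0.08 at 24h, beside -0.00, 0.00 and 0.02 over all genes.

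**Figure D1:**
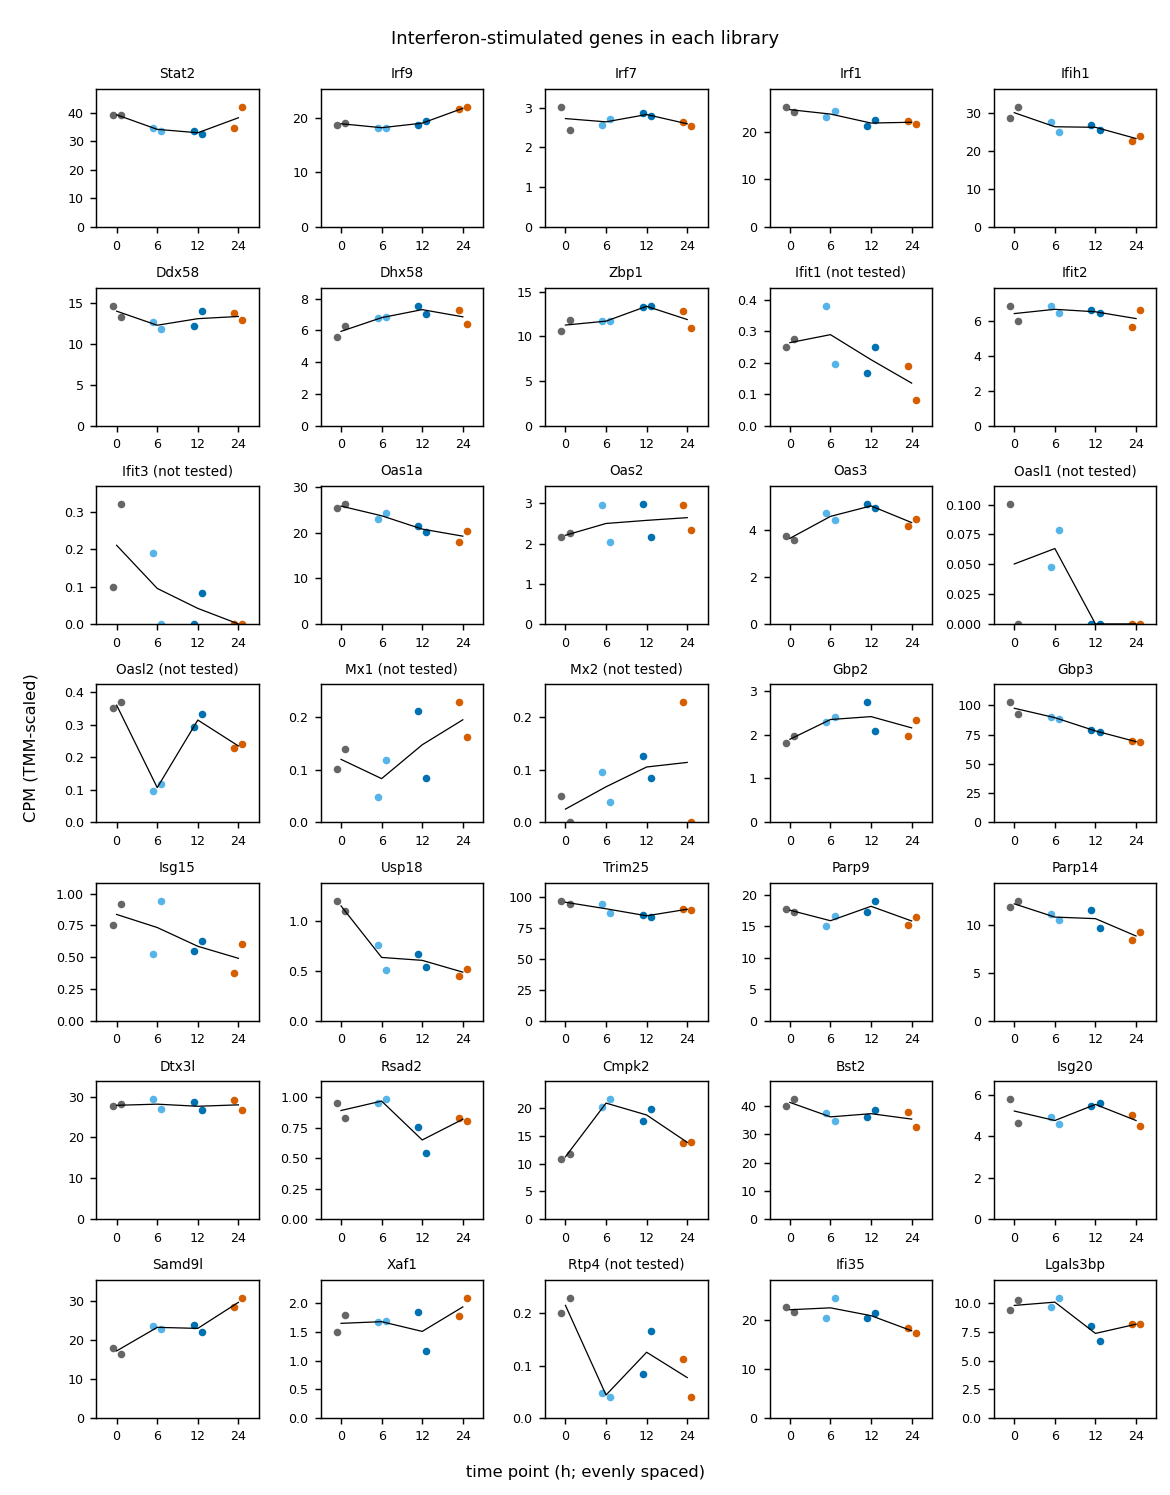
CPM of each of the 35 genes in each library (points, 2 per time point, y axis from 0 with its own scale per gene) against the time point in hours, drawn evenly spaced, with a line through the mean of the 2 libraries. Cmpk2 is highest at 6h and Samd9l at 24h, Gbp3 is lower at each step, and the 7 panels marked as not tested lie below 0.4 CPM.

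Most changes were small, as they were over all genes tested. The median absolute log2 fold change of the members was 0.135 at 6h, 0.210 at 12h and 0.214 at 24h against 0h. Over all genes it was 0.130, 0.212 and 0.252. Of the called changes, the one of Usp18 at 24h was the only one of 2-fold or more. The 95% interval of the fold change lay within 2-fold of no change for 26 of 28 genes at 6h, 25 at 12h and 26 at 24h against 0h. The genes outside it were Usp18 and Cmpk2 at 6h, Isg15, Usp18 and Rsad2 at 12h, and Isg15 and Usp18 at 24h. The share of all genes with an interval within 2-fold was not counted. The libraries lay apart from both 0h libraries for 16 of 28 genes at 6h (57.1%, beside 56.3% of all genes), 19 at 12h (67.9%, beside 71.2%) and 18 at 24h (64.3%, beside 74.9%). In bulk RNA, fewer cells that express a gene and less of its RNA per cell cannot be told apart. Exons of Irf1, Irf7, Ifi35, Parp14, Gbp2, Oasl1 and Rtp4 overlap another annotated gene, where reads may be unassigned or misplaced.

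**Figure D2:**
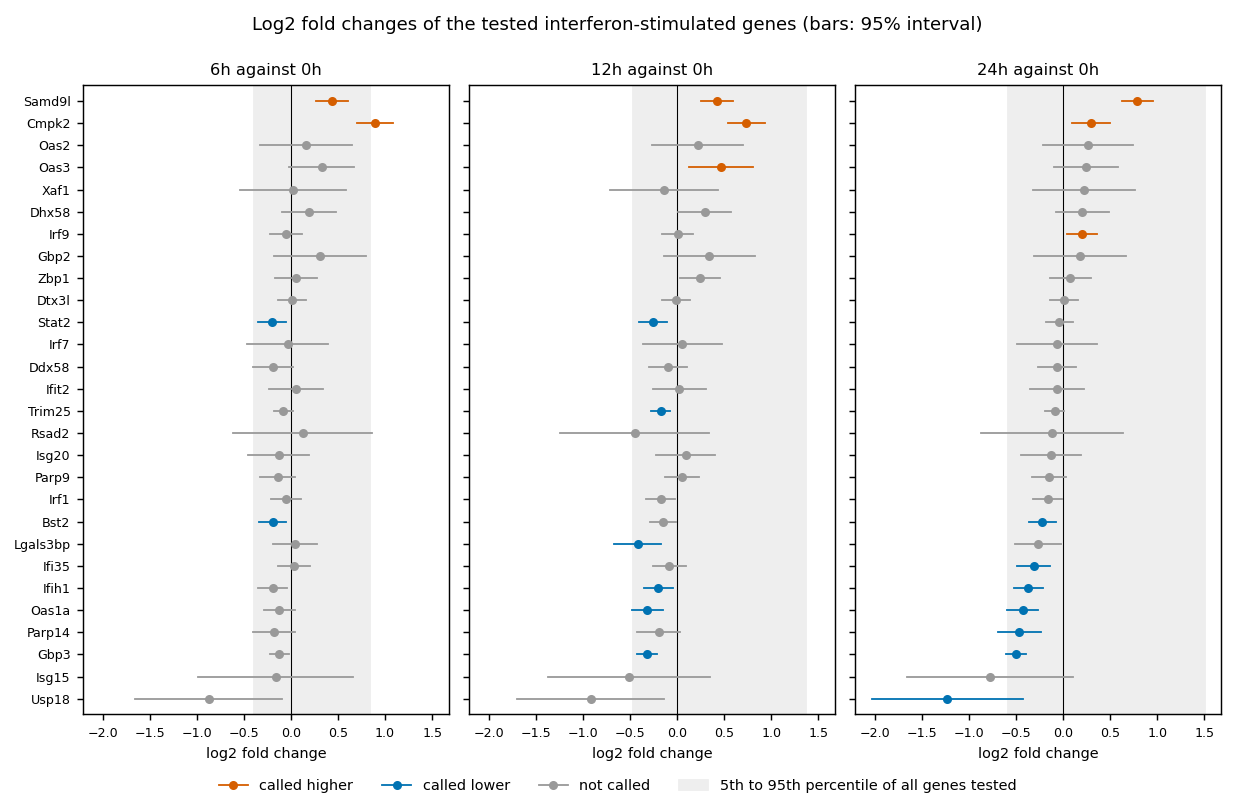
Log2 fold change (x axis) of the 28 tested genes at 6h, 12h and 24h against 0h, with 95% intervals (bars), sorted by the value at 24h. Grey shading spans the 5th to the 95th percentile of all genes tested. Colours mark genes called higher or lower. Most points lie inside the shading, Cmpk2 at 6h and Usp18 at each time lie outside it, as does Isg15 at 12h and 24h, and the wide bars belong to genes with few reads.

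Promoters of some members are shown first, because the ISRE is the element through which interferon acts on many genes of this class. They were picked partly by whether they hold a match to it. The printed set therefore cannot show whether a match goes with the direction of change. RefSeq windows of build GRCm38.p6, 250 bases before to 50 bases after a start, were held for 26 of the 35 genes, 32 windows in all. The others were Dhx58, Zbp1, Oas2, Mx1, Mx2, Usp18, Parp9, Parp14 and Rtp4. An ISRE core, GAAANNGAAA on either strand, was found for 12 of the 26 genes, in 37.5% of their windows beside 3.44% of the 32851 windows of all genes. Gbp3, Oas1a, Ifih1 and Bst2 are the members called lower at 24h that hold it. Ifi35, also called lower at 24h, has a window without a core and is not printed. Isg15 and Ifit1 were added, after their values were seen, as classical targets that were scarce here, and Samd9l and Cmpk2 as the genes called higher at every time against 0h, whose windows hold no match to these letters. Near its end, the Samd9l window holds gaaactgaag, which differs from the core in its last letter only. Near matches were not searched for in the windows. Of the genes called higher at 1 time, Oas3 holds a core, at bases -75 to -66 from the start, and Irf9 holds none. Capitals mark ISRE cores, overlapping ones as a single run, and each sequence runs 5′ to 3′ on the gene's strand.

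Gbp3 chr3:142559794-142560093 (plus strand): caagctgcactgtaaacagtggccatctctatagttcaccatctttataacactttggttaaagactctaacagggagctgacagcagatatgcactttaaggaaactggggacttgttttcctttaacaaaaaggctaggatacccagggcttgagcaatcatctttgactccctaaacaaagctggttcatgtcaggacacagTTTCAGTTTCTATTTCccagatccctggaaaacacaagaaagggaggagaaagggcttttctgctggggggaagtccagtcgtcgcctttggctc
Oas1a chr5:120907476-120907775 (minus strand): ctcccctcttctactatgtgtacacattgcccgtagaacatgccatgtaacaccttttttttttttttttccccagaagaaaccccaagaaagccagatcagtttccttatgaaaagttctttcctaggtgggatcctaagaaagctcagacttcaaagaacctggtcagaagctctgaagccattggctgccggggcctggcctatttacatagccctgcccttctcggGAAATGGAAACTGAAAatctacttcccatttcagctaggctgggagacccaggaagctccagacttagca
Ifih1 chr2:62646206-62646505 (minus strand): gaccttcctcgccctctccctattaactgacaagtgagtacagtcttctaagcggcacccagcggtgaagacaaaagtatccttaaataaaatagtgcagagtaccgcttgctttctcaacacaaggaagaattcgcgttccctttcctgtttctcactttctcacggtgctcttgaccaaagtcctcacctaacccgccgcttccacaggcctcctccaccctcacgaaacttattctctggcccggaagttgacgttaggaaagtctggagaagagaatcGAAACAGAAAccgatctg
Bst2 chr8:71537423-71537722 (minus strand): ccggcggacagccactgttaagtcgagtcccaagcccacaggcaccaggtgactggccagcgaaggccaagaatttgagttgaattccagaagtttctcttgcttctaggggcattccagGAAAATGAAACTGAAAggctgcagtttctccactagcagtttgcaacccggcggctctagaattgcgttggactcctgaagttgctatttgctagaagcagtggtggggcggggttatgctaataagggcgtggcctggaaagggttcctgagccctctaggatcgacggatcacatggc
Isg15 chr4:156200769-156201068 (minus strand): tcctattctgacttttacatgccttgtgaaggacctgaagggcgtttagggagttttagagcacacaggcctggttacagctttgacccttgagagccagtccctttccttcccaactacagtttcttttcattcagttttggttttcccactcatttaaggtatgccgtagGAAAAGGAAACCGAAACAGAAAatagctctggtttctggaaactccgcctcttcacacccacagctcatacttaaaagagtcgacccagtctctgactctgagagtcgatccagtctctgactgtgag
Ifit1 chr19:34640639-34640938 (plus strand): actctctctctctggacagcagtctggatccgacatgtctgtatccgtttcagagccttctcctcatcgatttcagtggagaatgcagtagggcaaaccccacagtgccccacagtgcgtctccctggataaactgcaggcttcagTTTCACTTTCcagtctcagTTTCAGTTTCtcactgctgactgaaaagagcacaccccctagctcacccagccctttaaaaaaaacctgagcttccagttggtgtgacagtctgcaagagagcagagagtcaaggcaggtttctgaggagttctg
Samd9l chr6:3399522-3399821 (minus strand): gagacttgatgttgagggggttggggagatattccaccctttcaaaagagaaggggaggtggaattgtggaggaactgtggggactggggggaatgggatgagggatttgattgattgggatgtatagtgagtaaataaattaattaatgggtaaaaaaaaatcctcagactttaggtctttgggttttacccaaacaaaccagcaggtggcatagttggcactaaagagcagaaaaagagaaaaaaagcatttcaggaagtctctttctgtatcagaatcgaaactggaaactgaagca
Cmpk2 chr12:26468965-26469264 (plus strand): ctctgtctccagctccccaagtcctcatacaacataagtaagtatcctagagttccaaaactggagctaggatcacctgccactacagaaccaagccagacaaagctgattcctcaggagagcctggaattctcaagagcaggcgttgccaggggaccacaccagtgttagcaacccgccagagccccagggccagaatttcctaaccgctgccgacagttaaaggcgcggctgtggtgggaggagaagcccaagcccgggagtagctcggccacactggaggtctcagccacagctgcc

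With the RefSeq start as base 0, the cores lay at bases -45 to -30 in Gbp3, -20 to -5 in Oas1a, -130 to -115 in Bst2, -78 to -57 in Isg15 and -104 to -76 in Ifit1, and at bases 32 to 41 after the start in Ifih1. Isg15 held 3 cores and Ifit1, Gbp3, Oas1a and Bst2 held 2 each. Both cores of Gbp3 and both of Ifit1 read on the opposite strand. Of the 12 genes with a core, 4 were called lower at 24h against 0h, 6 were called in neither direction and 2 were not tested. Of the 14 genes with windows but no core, 3 were called higher, 1 lower, 8 in neither direction, and 2 were not tested. Over all genes tested, 26.1% were called higher and 24.8% lower at 24h against 0h. Genes at large were not split by core. The difference between the counts with and without a core was not tested.

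A GAS core, TTCNNNGAA, which reads the same on both strands, was found for 6 of the 26 genes (18.8% of windows, beside 8.3% of all windows). These were Irf1, Ifit2, Oas1a, Bst2, Isg20 and Ifi35. A box of the kind that KLF factors bind, searched as GGGNGTG on both strands, was found for 14 genes (43.8% of windows, beside 29.2%). Neither the Cmpk2 nor the Samd9l window held it. A match of letters is a description and does not show a bound site.

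Levels between genes were compared as CPM per kilobase of annotated exon. At 0h, Bst2 was highest at 45.8 ± 1.72 CPM per kb, followed by Gbp3 at 29.9 ± 2.14, Trim25 at 16.6 ± 0.268, Oas1a at 13.7 ± 0.341 and Ifi35 at 12.8 ± 0.422 (SD, n = 2). Oas1a and Ifi35 differed by little more than the sum of their SDs, and the steps above them by more. At the other end, Isg15 averaged 1.11 ± 0.156 CPM per kb, Rsad2 0.206 ± 0.0206, Ifit1 0.0992 ± 0.00664, Oasl2 0.0565 ± 0.00183 and Mx1 0.0315 ± 0.00702. Genes of the same class therefore spanned several orders of magnitude in the same cells before the other time points.

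**Figure D3:**
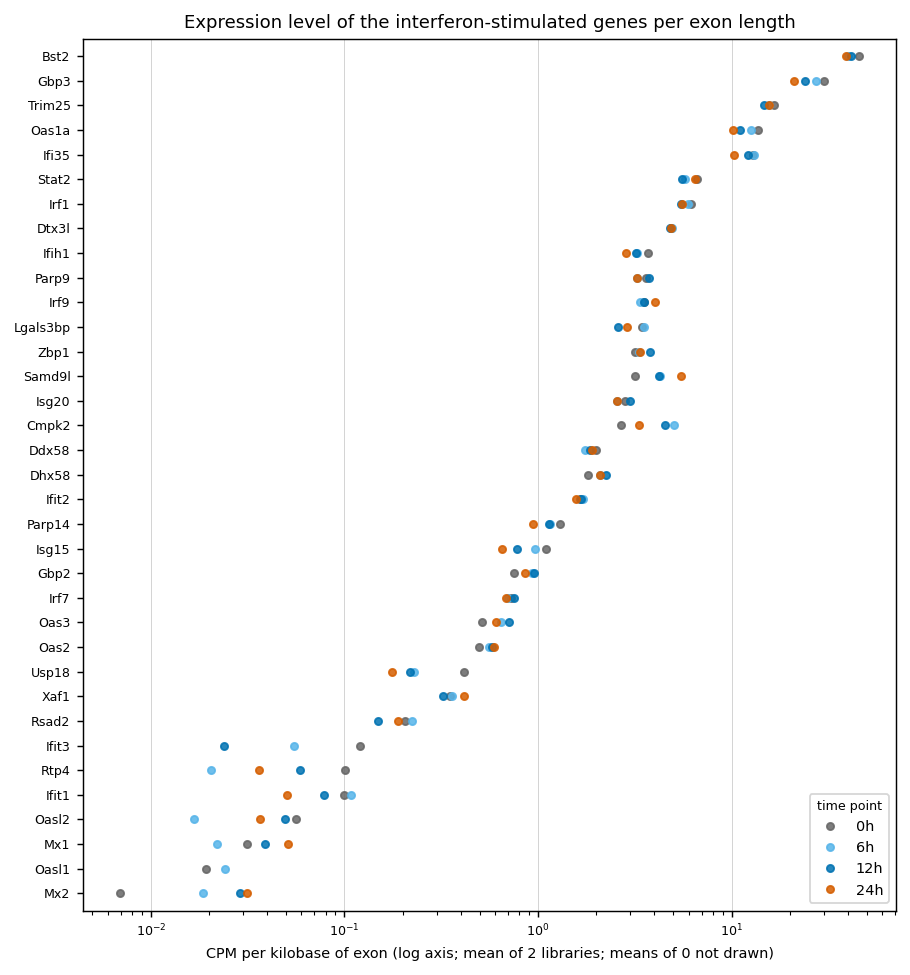
Mean CPM per kilobase of exon (x axis, log scale, 2 libraries per point) of each of the 35 genes (y axis, sorted by 0h) at 0h, 6h, 12h and 24h (colours). Means of 0 are not drawn (Ifit3 at 24h and Oasl1 at 12h and 24h). Bst2 and Gbp3 stand at the top with 45.8 and 29.9 CPM per kb at 0h, and the 7 untested genes at the bottom.

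Among the 4 transcription factors of the class, Stat2 fell at 6h and 12h, Irf9 rose at 24h, and Irf1 and Irf7 passed the test at no time. Stat2 and Irf9 are partners in the complex that binds the ISRE. Stat2 (ENSMUSG00000040033, chr10:128270559-128292849) was at 39.3 and 39.3 CPM at 0h, 34.6 and 33.8 CPM at 6h, 33.5 and 32.5 CPM at 12h, and 34.5 and 42 CPM at 24h. Both 6h and both 12h libraries lay below the 0h pair, while the 24h libraries lay on either side of it. Its log2 fold change was -0.20 ± 0.07 at 6h (SE, adjusted p = 0.0494) and -0.25 ± 0.07 at 12h (adjusted p = 0.00484), against 0h in both cases, and -0.04 ± 0.07 at 24h (adjusted p = 0.659). The 6h call was lost in 11 of 15 alternative analyses, with adjusted p between 0.0124 and 0.201.

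Irf9 (chr14:55603571-55610030) was at 18.7 and 19.1 CPM at 0h, 18.2 and 18.2 CPM at 6h, 18.7 and 19.3 CPM at 12h, and 21.5 and 21.9 CPM at 24h. Both 24h libraries were above all the others, by 0.20 ± 0.08 on the log2 scale against 0h (SE, adjusted p = 0.0358). This call was lost in 7 of 15 alternatives, among them leaving out any 1 of the 4 libraries at 0h and 24h (adjusted p up to 0.221 over the alternatives). Irf9 overlaps exons of Rnf31 on the same strand, where reads cannot be assigned with certainty.

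Irf1, a factor induced above all by type II interferon, was at 22.4 and 21.6 CPM at 24h, against 25.2 and 24.1 CPM at 0h. Its 24h libraries were below the 0h pair, but the log2 fold change of -0.16 ± 0.08 missed the threshold (adjusted p = 0.0752). Irf7, which amplifies type I interferon production, was low throughout, at 2.65 and 2.54 CPM at 24h, against 3.01 and 2.44 CPM at 0h. Its 95% interval for the log2 change at 24h, -0.49 to 0.36, holds both small rises and small falls.

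Of the 4 sensors of foreign nucleic acid, Ifih1 fell and the other three passed the test in neither direction at any time against 0h. Ifih1 (ENSMUSG00000026896, chr2:62595798-62646255, minus strand), which encodes MDA5, a sensor of long double-stranded RNA, was at 28.7 and 31.7 CPM at 0h, 27.8 and 25.2 CPM at 6h, 27 and 25.7 CPM at 12h, and 22.6 and 24.1 CPM at 24h. Each later library was below both 0h libraries, and the 24h pair was the lowest. Against 0h, the log2 fold change was -0.20 ± 0.08 at 12h (adjusted p = 0.0311) and -0.37 ± 0.08 at 24h (adjusted p = 0.000101). The 24h call held in all 15 alternatives, and the 12h call was lost in 7 (adjusted p between 0.0126 and 0.325).

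Ddx58, which encodes the RNA sensor RIG-I, was at 13.8 and 13 CPM at 24h, against 14.7 and 13.3 CPM at 0h, and the groups overlapped. Dhx58, which encodes the related regulator LGP2, was at 7.3 and 6.42 CPM at 24h, against 5.57 and 6.3 CPM at 0h, and Zbp1, a sensor of left-handed nucleic acid that can trigger cell death, at 12.8 and 11 CPM at 24h, against 10.6 and 11.9 CPM at 0h. Dhx58 at 12h had a log2 fold change of 0.30 ± 0.14 (adjusted p = 0.0815) and Zbp1 one of 0.24 ± 0.10 (adjusted p = 0.0569), both against 0h, neither past the threshold. Dhx58 overlaps the antisense gene Dhx58os, and counting by strand is not stated.

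The IFIT proteins bind viral RNA and block its translation. Ifit2 was the only one of the 3 with enough reads, at 6.88 and 6.03 CPM at 0h, 6.92 and 6.49 CPM at 6h, 6.64 and 6.47 CPM at 12h, and 5.67 and 6.66 CPM at 24h. All time points overlapped, and the 95% interval at 24h against 0h was -0.35 to 0.22 on the log2 scale. Its neighbours on chromosome 19, Ifit1 and Ifit3, had 41 and 15 counts in all 8 libraries together. Ifit1 had 7 counts at 24h, against 11 at 0h, a ratio of depth-scaled counts of 0.517 with a 95% counting interval of 0.17 to 1.46. Ifit3 had 0 counts at 24h, against 9 at 0h, and the interval of that ratio reached up to 0.412.

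OAS enzymes make oligoadenylates that activate RNase L, which degrades RNA. Oas1a fell, Oas3 rose at 12h, Oas2 passed in neither direction, and Oasl1 and Oasl2 were not tested. Oas1a (ENSMUSG00000052776, chr5:120896256-120907521, minus strand) was at 25.4 and 26.3 CPM at 0h, 23 and 24.4 CPM at 6h, 21.4 and 20.2 CPM at 12h, and 18 and 20.4 CPM at 24h. Every library at 12h and 24h was below both libraries of 6h and of 0h. The log2 fold change against 0h was -0.31 ± 0.08 at 12h (SE, adjusted p = 0.00164) and -0.43 ± 0.08 at 24h (adjusted p = 3.07e-05), and both calls held in all 15 alternatives. Oas1a has close copies in mouse, among which reads can be lost or misplaced.

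Oas3 (chr5:120753098-120777661, minus strand) was at 3.72 and 3.54 CPM at 0h, 4.72 and 4.4 CPM at 6h, 5.09 and 4.93 CPM at 12h, and 4.16 and 4.44 CPM at 24h. All later libraries exceeded the 0h pair, with the 12h pair highest. The log2 fold change at 12h was 0.46 ± 0.17 (adjusted p = 0.0226), and the call was lost in 6 of 15 alternatives, including the omission of any 1 of the 0h or 12h libraries (adjusted p up to 0.148 over the alternatives). Oas2 was at 2.95 and 2.34 CPM at 24h, against 2.16 and 2.25 CPM at 0h, a log2 difference of 0.26 ± 0.23 (adjusted p = 0.363). Oasl1 had 5 and Oasl2 47 counts in all libraries. Oasl2 had 12 counts at 24h, against 15 at 0h, and 5 at 6h, where the ratio to 0h was 0.299 with a counting interval of 0.0851 to 0.866.

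Of the interferon-induced GTPases, Gbp3 fell at 12h and 24h while the others were scarce. Guanylate-binding proteins coat vacuoles and membranes of invading microbes. Gbp3 (ENSMUSG00000028268, chr3:142560026-142573209, plus strand) was at 103 and 92.7 CPM at 0h, 90.4 and 88.7 CPM at 6h, 79.3 and 77.1 CPM at 12h, and 69.4 and 68.7 CPM at 24h. Each pair of libraries lay below the pair of the time point before it, with no overlap. The log2 fold change against 0h was -0.12 ± 0.05 at 6h (SE, adjusted p = 0.0891), -0.32 ± 0.05 at 12h (adjusted p = 3.89e-06) and -0.50 ± 0.05 at 24h (adjusted p = 3.37e-10). The 12h and 24h calls held in all 15 alternatives.

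Gbp3 also fell between successive times, with a log2 fold change of -0.20 ± 0.05 at 12h against 6h (adjusted p = 0.00568) and of -0.18 ± 0.05 at 24h against 12h (adjusted p = 0.0289). The last call was lost in DESeq2 and on leaving out any 1 of the 4 libraries at 12h and 24h (adjusted p up to 0.241 over the alternatives). Gbp3 was among the most abundant members per kilobase and had 15477 counts in all, so it is also among the most precisely measured.

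Gbp2, a paralog nearby on chromosome 3, was at 1.97 and 2.34 CPM at 24h, against 1.81 and 1.98 CPM at 0h, with a log2 difference of 0.18 ± 0.24 (adjusted p = 0.559). Mx1 and Mx2, of a family whose working proteins trap viral nucleocapsids, had 26 and 15 counts in all. Mx2 is annotated as a polymorphic pseudogene. Mx1 had 10 counts at 24h, against 5 at 0h (ratio 1.63, counting interval 0.506 to 6.06). Mx2 had 6 counts at 24h, against 1 at 0h (ratio 4.88, counting interval 0.592 to 224). These counts allow neither a rise nor a fall to be told.

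In the ubiquitin-like ISG15 system, Usp18 fell and Isg15 was scarce. ISG15 is a small modifier that is joined to other proteins, and USP18 removes it and also shuts off signalling at the interferon receptor. Usp18 (chr6:121245906-121270917) was at 1.21 and 1.1 CPM at 0h, 0.763 and 0.511 CPM at 6h, 0.673 and 0.543 CPM at 12h, and 0.454 and 0.525 CPM at 24h. All later libraries lay below both 0h libraries. Its log2 fold change against 0h was -0.87 ± 0.38 at 6h (SE, adjusted p = 0.116), -0.92 ± 0.38 at 12h (adjusted p = 0.0504) and -1.23 ± 0.39 at 24h (adjusted p = 0.00900).

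Usp18 thus had the largest fitted fall of the tested members at 24h, but it rests on 131 counts over 8 libraries, and its exons overlap Gm44148 on the other strand. The 24h call was lost in DESeq2 and on leaving out 0h replicate 1 or 24h replicate 1 (adjusted p up to 0.0874 over the alternatives). Isg15 had 123 counts in all and was at 0.378 and 0.605 CPM at 24h, against 0.753 and 0.92 CPM at 0h. Its 24h libraries lay below the 0h pair, while the log2 fold change of -0.77 ± 0.43 (adjusted p = 0.137) did not pass and its 95% interval was -1.65 to 0.10.

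Trim25, an E3 ligase that activates RIG-I, was among the most abundant members, at 96.7 and 94.6 CPM at 0h, 94 and 86.8 CPM at 6h, 85.4 and 84 CPM at 12h, and 90.2 and 89.7 CPM at 24h. It fell at 12h against 0h, with a log2 fold change of -0.17 ± 0.05 (adjusted p = 0.0041), which was -0.09 ± 0.05 at 24h (adjusted p = 0.135). The 12h call was lost when libraries were scaled to their totals instead of by TMM (adjusted p = 0.0836).

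PARP9 and DTX3L form a ubiquitin ligase complex, and PARP14 is a related enzyme that attaches ADP-ribose to proteins. Parp14 (chr16:35832874-35871544, minus strand) was at 11.9 and 12.5 CPM at 0h, 11.1 and 10.5 CPM at 6h, 11.6 and 9.69 CPM at 12h, and 8.4 and 9.24 CPM at 24h. Both 24h libraries were the lowest of the 8, with a log2 fold change against 0h of -0.47 ± 0.11 (SE, adjusted p = 0.000708) that held in all 15 alternatives. Dtx3l passed in neither direction, at 29.1 and 26.8 CPM at 24h, against 27.6 and 28.1 CPM at 0h, and its 95% interval of -0.14 to 0.16 on the log2 scale was among the narrowest. Parp9 was at 15.3 and 16.4 CPM at 24h, against 17.8 and 17.3 CPM at 0h, with a log2 difference of -0.15 ± 0.09 (adjusted p = 0.172). Parp9 and Dtx3l share overlapping exons on opposite strands, where reads may be unassigned.

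Of the remaining 9 effectors, Cmpk2 and Samd9l rose at each time against 0h. Cmpk2 encodes a mitochondrial nucleotide kinase and lies beside Rsad2, which encodes the antiviral enzyme viperin, on chromosome 12. Cmpk2 (ENSMUSG00000020638, chr12:26469204-26479837, plus strand) was at 10.8 and 11.7 CPM at 0h, 20.2 and 21.6 CPM at 6h, 17.6 and 19.9 CPM at 12h, and 13.8 and 13.9 CPM at 24h. All later libraries exceeded the 0h pair, the 6h pair was highest, and the 24h pair lay between those of 0h and 12h. The log2 fold change against 0h was 0.90 ± 0.10 at 6h (SE, adjusted p = 3.07e-09), 0.74 ± 0.10 at 12h (adjusted p = 8.83e-08) and 0.30 ± 0.10 at 24h (adjusted p = 0.0123).

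The 6h value of Cmpk2 is 1.86-fold, the largest rise of a tested member in any comparison with 0h. It fell again at 24h against 12h, with a log2 fold change of -0.44 ± 0.09 (adjusted p = 0.0012). The 6h and 12h calls against 0h held in all 15 alternatives. The 24h call was lost in DESeq2 and without 0h replicate 1, and the fall after 12h without 12h replicate 2. Rsad2 (chr12:26442746-26456452, minus strand) passed in neither direction at any time. It was at 0.954 and 0.983 CPM at 6h, against 0.954 and 0.828 CPM at 0h, and its log2 difference was 0.12 ± 0.37 (adjusted p = 0.866), with a 95% interval of -0.62 to 0.87 on 155 counts in all.

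Samd9l (ENSMUSG00000047735, chr6:3372257-3399572, minus strand), which restrains cell growth and viral replication and is a tumour suppressor in myeloid disease, was at 18 and 16.4 CPM at 0h, 23.7 and 22.9 CPM at 6h, 23.9 and 22.2 CPM at 12h, and 28.6 and 30.9 CPM at 24h. The 6h and 12h libraries overlapped each other above the 0h pair, and the 24h pair was the highest. Its log2 fold change against 0h was 0.44 ± 0.08 at 6h (SE, adjusted p = 0.000193), 0.42 ± 0.08 at 12h (adjusted p = 8.76e-05) and 0.79 ± 0.08 at 24h (adjusted p = 2.06e-10). All of these held in all 15 alternatives.

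Samd9l also rose at 24h against 12h, by 0.37 ± 0.07 on the log2 scale (adjusted p = 0.00113), a call lost without 12h replicate 2 (adjusted p = 0.0628). Cmpk2 was lower at 24h than at 12h and Samd9l higher, and the difference between the 2 courses was not tested as such.

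Bst2, which encodes tetherin, a membrane protein that holds budding virus on the cell, was at 40.2 and 42.4 CPM at 0h, 37.7 and 34.8 CPM at 6h, 36.2 and 38.5 CPM at 12h, and 38.1 and 32.8 CPM at 24h. All later libraries were below the 0h pair. Relative to 0h, the log2 fold change was -0.19 ± 0.07 at 6h (SE, adjusted p = 0.0496), -0.15 ± 0.07 at 12h (adjusted p = 0.0869) and -0.22 ± 0.07 at 24h (adjusted p = 0.0078). The 6h call was lost in 11 of 15 alternatives and the 24h call in 4, where the fall shrank to as little as -0.051 and the adjusted p reached 0.538.

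Ifi35, a partner of the interferon-induced protein NMI, was at 22.7 and 21.7 CPM at 0h, 20.5 and 24.6 CPM at 6h, 20.5 and 21.4 CPM at 12h, and 18.4 and 17.4 CPM at 24h. Both 24h libraries were the lowest of the 8, with a log2 fold change of -0.31 ± 0.09 against 0h (adjusted p = 0.00300). A correction for GC content and gene length took the adjusted p to 0.0605. Lgals3bp, a secreted galectin-binding glycoprotein, was at 9.39 and 10.3 CPM at 0h, 9.73 and 10.5 CPM at 6h, 8.03 and 6.72 CPM at 12h, and 8.17 and 8.19 CPM at 24h. It fell at 12h, with a log2 fold change of -0.42 ± 0.12 against 0h (adjusted p = 0.00593) and of -0.46 ± 0.12 against 6h (adjusted p = 0.00563). Each of these was lost in 3 of 15 alternatives, among them DESeq2 and the omission of 12h replicate 2.

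Isg20, an RNA exonuclease, was at 5.03 and 4.48 CPM at 24h, against 5.78 and 4.65 CPM at 0h, and Xaf1, a promoter of cell death, at 1.78 and 2.1 CPM at 24h, against 1.51 and 1.79 CPM at 0h. Both overlapped the 0h pair, with log2 differences of -0.13 ± 0.16 and 0.22 ± 0.27 (adjusted p = 0.531 and 0.508). Rtp4, a chaperone of receptors at the membrane, had 21 counts in all, with 4 at 24h, against 9 at 0h (ratio 0.361, counting interval 0.0813 to 1.29). At 6h it had 2 counts, where the ratio to 0h was 0.199 with a counting interval of 0.0210 to 0.963. The 7 untested genes together summed to 1.16 and 1.33 CPM at 0h, 0.906 and 0.59 CPM at 6h, 0.883 and 1.002 CPM at 12h, and 0.983 and 0.525 CPM at 24h. Their sum did not exceed its 0h level at any later time.

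Between successive later times few members were called. At 12h against 6h, Gbp3 and Lgals3bp fell and 26 of 28 passed in neither direction, a share called of 7.14% beside 20.7% of all genes (10.9% higher and 9.78% lower). No member rose in edgeR's or DESeq2's test there, and 4 had an unadjusted p under 0.05 in either direction. At 24h against 12h, Samd9l rose, Cmpk2 and Gbp3 fell and 25 passed in neither direction. That is 10.7% called, beside 6.46% of all genes (3.41% higher and 3.04% lower), and 9 members had an unadjusted p under 0.05. The libraries of these 2 times lay apart for 60.7% of members, beside 49.2% of all genes. The median absolute log2 fold change of the members was 0.176, beside 0.0994 over all genes. At 12h against 6h these values were 53.6% beside 58.3%, and 0.0988 beside 0.136. None of these differences from all genes was tested. An F test over all times at once called 13 of 28 members, or 46.4%, beside 52.8% of all genes.

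Of tissue macrophage markers, which could mark another cell that expresses interferon-stimulated genes, 5 of 7 averaged under 1 CPM. The summed level of the list moved in the same direction as the members that fell, at 40.8 to 44.8 CPM at 24h, against 65.3 to 70.5 CPM at 0h. It was carried by Adgre1, while C1qa, C1qc and Marco were at 0 in all libraries. Cd5l and C1qb went the other way, on few counts. Cd5l was at 0.719 and 0.282 CPM at 24h, against 0 and 0 CPM at 0h, and C1qb at 0.378 and 0.525 CPM at 24h, against 0 and 0 CPM at 0h. For stroma and endothelium, 5 of 6 markers averaged under 1 CPM, and the sum was 139 to 145 CPM at 24h, against 183 to 187 CPM at 0h, nearly all of it Pecam1. The parts of these markers in the changes of the members were not tested.

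The genes upstream of the class were read from lists of interferons, receptors and regulators. No interferon gene could be tested. Of 21 interferon genes in the files, 17 had 0 counts in all 8 libraries, which allows up to 0.113 to 0.151 CPM per library. Ifnk had 24 counts, Ifnz 5, Ifnab 2 and Ifng 1 in all libraries together. Ifnk had 0 counts in each 0h library, and all of its counts came from later times. The first 6h library held 3 of them and the second held 0. The 12h libraries held 2 and 9, while the 24h libraries held 6 and 4. Ifnz and Ifnab had counts at 0h, and the count of Ifng was at 6h. On so few counts, a change of Ifnk with time was not tested. Ifnb1 and all the listed Ifna genes were among the 17.

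The receptor chains were present, and Ifnar1, Ifngr1 and Ifngr2 fell at each time against 0h. Of 10 tested genes of the receptors and JAK-STAT proteins, 1 rose and 4 fell at 6h, 2 rose and 4 fell at 12h, and 2 rose and 4 fell at 24h, all against 0h. The 6h fall of Ifngr1 held in all 15 alternatives, while that of Ifnar1 was lost in 2, of Ifngr2 in 4 and of Il10rb in 10. At 12h and 24h the calls of Ifngr1, Ifnar1 and Ifngr2 held in all 15. The shares of the whole table that fell were 8.58% for the 6h libraries, 21.6% for those of 12h and 24.8% for those of 24h, beside 9.74%, 22.1% and 26.1% that rose. No list was tested against these shares. Ifngr1, the ligand-binding chain of the type II receptor, was at 456 and 458 CPM at 0h, 364 and 375 CPM at 6h, 360.5 and 355 CPM at 12h, and 359.7 and 363 CPM at 24h. The 6h, 12h and 24h libraries all lay below the 0h pair and close to each other. Its log2 fold change was -0.34 ± 0.04 at 24h against 0h (SE, adjusted p = 5.96e-09). Ifngr2, its partner chain, was at 38.3 and 35.8 CPM at 24h, against 47.2 and 47 CPM at 0h (log2 fold change -0.34 ± 0.07, adjusted p = 3.38e-05).

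Ifnar1, a chain of the type I receptor, was at 78.1 and 83.6 CPM at 24h, against 97.3 and 98.4 CPM at 0h, with a log2 fold change of -0.28 ± 0.05 (adjusted p = 1.98e-05). Il10rb, a chain shared by type III interferon and interleukin receptors, was at 46.2 and 49.6 CPM at 24h, against 54.5 and 57.1 CPM at 0h (-0.22 ± 0.06, adjusted p = 0.0018). In all of these the 24h libraries lay below both 0h libraries. Ifnar2 was at 53 and 57.2 CPM at 24h, against 56.7 and 59.9 CPM at 0h, and the groups overlapped (adjusted p = 0.28).

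Jak2, the kinase of the type II receptor and of many cytokine receptors, rose. It was at 31.3 and 35.3 CPM at 0h, 41.4 and 36.7 CPM at 6h, 49 and 49.4 CPM at 12h, and 53 and 51.2 CPM at 24h, and its log2 fold change at 24h against 0h was 0.64 ± 0.07 (SE, adjusted p = 3.02e-10). Tyk2, a kinase of the type I receptor, was at 97.8 and 97.1 CPM at 24h, against 84.1 and 85.9 CPM at 0h (log2 fold change 0.20 ± 0.05, adjusted p = 0.000695). The direction for Tyk2 turned when GC content and gene length were corrected, to -0.043 at 12h and -0.030 at 24h on the log2 scale.

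**Figure D4:**
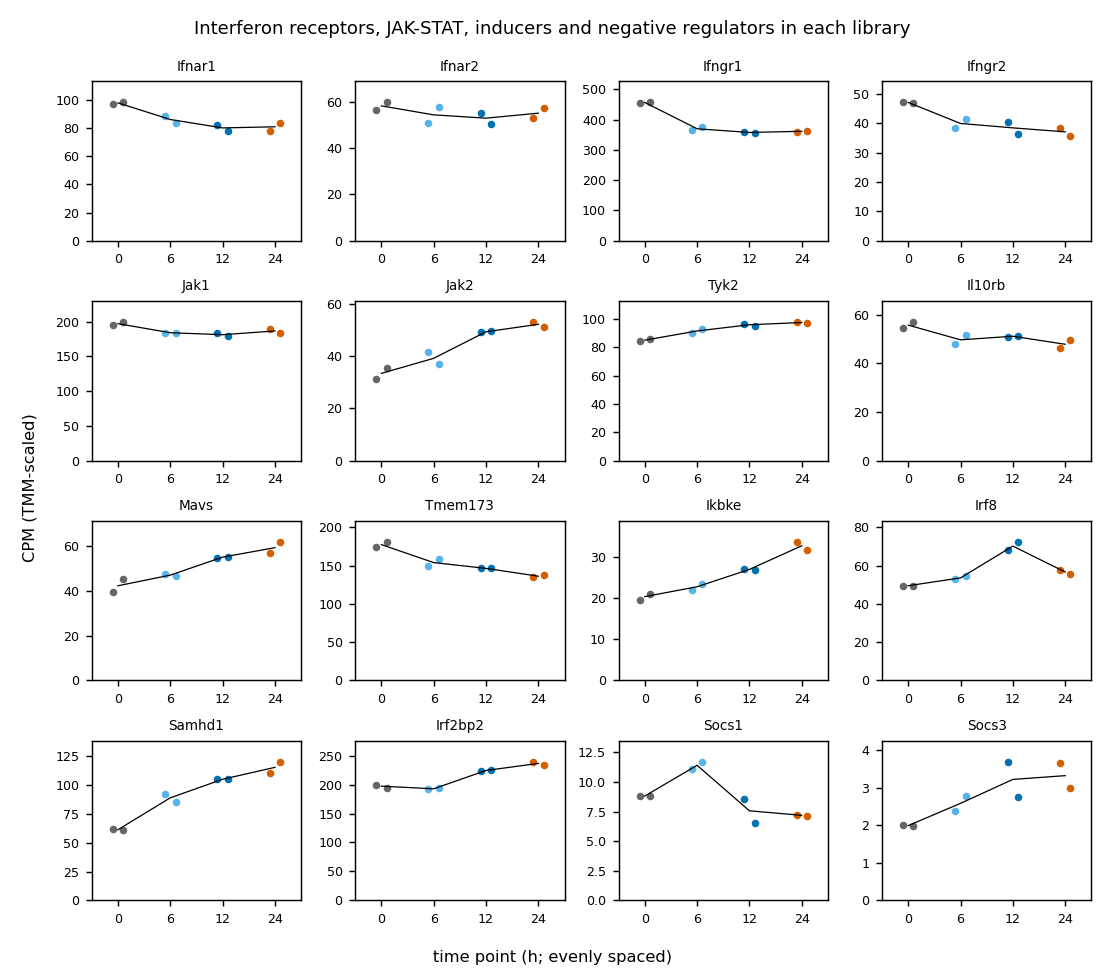
CPM in each library (points, 2 per time point, y axis from 0 with its own scale per gene) of 16 receptors, kinases, inducers and negative regulators of interferon signalling against the time point in hours, drawn evenly spaced, with a line through the means. Ifnar1, Ifngr1, Ifngr2 and Tmem173 are lower at 6h, 12h and 24h than at 0h, Jak2, Ikbke, Mavs and Samhd1 climb, Irf8 is highest at 12h and Socs1 at 6h.

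Genes that lead to interferon production were called in both directions. Of 14 tested adaptors, kinases, sensors and IRFs, 1 fell at 6h, 6 rose and 2 fell at 12h, and 6 rose and 3 fell at 24h against 0h. At 24h, 50.9% of all genes were called (26.1% higher and 24.8% lower). The shares of all genes were 9.74% higher and 8.58% lower at 6h, and 22.1% higher and 21.6% lower at 12h. Mavs, the mitochondrial adaptor of RIG-I and MDA5, was at 56.9 and 62.1 CPM at 24h, against 39.5 and 45.3 CPM at 0h (log2 fold change 0.48 ± 0.06, adjusted p = 4.16e-08). Ikbke, a kinase that activates IRF3 and IRF7, was at 33.8 and 31.9 CPM at 24h, against 19.7 and 21.2 CPM at 0h (0.68 ± 0.07, adjusted p = 1.17e-09). In both, all 24h libraries exceeded the 0h pair.

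Tmem173, which encodes STING, the adaptor of DNA sensing, fell to 135 and 137 CPM at 24h, against 174 and 181 CPM at 0h (-0.38 ± 0.04, adjusted p = 3.17e-09). Myd88, the adaptor of most Toll-like receptors, also fell, to 36.8 and 39.1 CPM at 24h, against 44.5 and 47 CPM at 0h (-0.27 ± 0.07, adjusted p = 0.000938). Irf8, an IRF needed for monocyte and dendritic cell development, was at 49.6 and 49.5 CPM at 0h, 52.9 and 54.4 CPM at 6h, 68.1 and 72.5 CPM at 12h, and 58 and 55.5 CPM at 24h. The 12h pair was the highest, at a log2 fold change against 0h of 0.50 ± 0.06 (adjusted p = 2.50e-09). At 24h the value was 0.20 ± 0.06 (adjusted p = 0.00401), a call lost without 24h replicate 1 and under the GC and length correction. Ticam1, an adaptor of TLR3, rose at 12h against 0h, at 0.23 ± 0.07 (adjusted p = 0.0119), a call lost in 4 of 15 alternatives.

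Of 12 tested negative regulators, 2 rose at 6h, 4 rose at 12h and 4 rose at 24h against 0h, and the rest passed in neither direction. The whole table had 26.1% called higher against 0h for the 24h libraries, 22.1% for those of 12h and 9.74% for those of 6h. Samhd1, an enzyme that depletes the nucleotides used in viral DNA synthesis and limits interferon induction, was at 61.8 and 60.9 CPM at 0h, 92.3 and 85.9 CPM at 6h, 105 and 105 CPM at 12h, and 111 and 120.4 CPM at 24h. It climbed at each time point without overlap, to a log2 fold change of 0.91 ± 0.05 at 24h against 0h (SE, adjusted p = 4.07e-17). Socs1, an inhibitor of JAK kinases, was at 8.84 and 8.79 CPM at 0h, 11.1 and 11.7 CPM at 6h, 8.58 and 6.55 CPM at 12h, and 7.22 and 7.14 CPM at 24h. Only the 6h pair was above the 0h pair, by 0.38 ± 0.12 on the log2 scale (adjusted p = 0.0254), a call lost in 4 of 15 alternatives.

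Socs3, an inhibitor of the same family, was at 3.67 and 2.99 CPM at 24h, against 2.01 and 1.98 CPM at 0h (0.74 ± 0.22, adjusted p = 0.00502), a call lost in DESeq2 and without 24h replicate 1. Irf2, a repressor at interferon response elements, was at 35.4 and 38.5 CPM at 24h, against 31.4 and 31.7 CPM at 0h (0.22 ± 0.07, adjusted p = 0.00515), a call lost in DESeq2 and without 24h replicate 2. Irf2bp2, a corepressor of IRF2, was at 239.5 and 234 CPM at 24h, against 199.8 and 195 CPM at 0h (0.26 ± 0.04, adjusted p = 1.33e-06). Adar, an RNA editing enzyme that keeps the cell's own RNA from being sensed, was called at no time against 0h, with a log2 difference of -0.04 ± 0.05 at 24h (adjusted p = 0.511). It was lower at 12h than at 6h, by a log2 fold change of -0.19 ± 0.05 (adjusted p = 0.00743), with 61.8 and 64.9 CPM at 12h, against 71.9 and 72.7 CPM at 6h, a call lost without the first 12h library (adjusted p = 0.116).

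A wider list of 72 other interferon-stimulated genes also held both directions. Of 50 tested, 2 rose and 1 fell at 6h, 12 rose and 10 fell at 12h, and 16 rose and 12 fell at 24h against 0h, with a median log2 fold change of 0.05 at 24h, beside 0.02 over all genes. In the whole table, 9.74% rose and 8.58% fell at 6h, 22.1% rose and 21.6% fell at 12h, and 26.1% rose and 24.8% fell at 24h against 0h. Cxcl9, Cxcl10, Ccl5, Ifi44 and Iigp1, typical of a strong interferon response, were among the 22 with too few reads. Sp100, a component of nuclear bodies, was at 200.1 and 209 CPM at 24h, against 275 and 268 CPM at 0h (-0.41 ± 0.04, adjusted p = 2.70e-10). Lgals9, a galectin, was at 271 and 290.1 CPM at 24h, against 347 and 359 CPM at 0h (-0.33 ± 0.04, adjusted p = 4.50e-08). N4bp1, an RNase and regulator of inflammatory signalling, was at 59 and 61.6 CPM at 24h, against 45.4 and 47.1 CPM at 0h (0.38 ± 0.06, adjusted p = 5.27e-07).

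Slfn1 and Ifitm3 rose more steeply, both at low levels. Slfn1, of the Schlafen family that restrains growth, was at 0.201 and 0.276 CPM at 0h, 0.429 and 0.55 CPM at 6h, 1.14 and 0.71 CPM at 12h, and 2.27 and 1.98 CPM at 24h, with a log2 fold change of 3.12 ± 0.42 at 24h against 0h (adjusted p = 8.53e-08). Ifitm3, which blocks viral entry, was at 1.004 and 0.92 CPM at 0h, 1.05 and 1.61 CPM at 6h, 1.85 and 2.13 CPM at 12h, and 2.76 and 3.39 CPM at 24h, with a log2 fold change of 1.67 ± 0.27 (adjusted p = 3.60e-06). For both, the 12h and 24h libraries all lay above the 0h pair. Slfn1 rests on few counts at 0h and both genes have close copies, so these fold changes are less certain than those of the abundant genes.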

How the data were processed

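RNA sequencing libraries (TruSeq, total RNA purified with an RNeasy kit, per the labels' protocols) were deposited by the authors as raw read counts for each Ensembl gene. The submitters' processing notes name HTSeq 2.0.3, SAMtools 1.3, STAR and the build mm10. Annotation release, strand setting and filters were not given in the sources used here. Each file held 47069 gene rows and 5 summary rows, which entered neither library sizes nor tests, and on average held 5.47% (no feature) and 5.47% (ambiguous) of fragments at 0h. Names came from GENCODE M21, where 46574 IDs matched and 495 did not. No libraries were identical, and replicates differed by more than sampling noise (chi-square per degree of freedom 1.83 to 3.79). Intervals and limits for counts cover counting error only, and the level that 0 counts allow was taken as 3 counts. Ratios of counts have 95% exact intervals.

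All 8 libraries entered 1 edgeR 4.0.16 quasi-likelihood fit in R 4.3.3 (filterByExpr with a count minimum of 10, TMM, a mean per time point), two-sided, with Benjamini-Hochberg adjustment over the 14263 genes. The residual degrees of freedom were 4 and the prior ones 32.1, and the biological coefficient of variation was 3.10%. CPM were computed from these counts, SE as the log2 fold change over the root of F. Members are all named by role. For each pathway list, up to 6 genes with the smallest F test p were named. Promoters were printed for members called at 24h against 0h that hold an ISRE core, plus 4 added later. The members, lists and motifs were chosen with earlier results of these data known. The alternatives were DESeq2 1.42.0, DESeq2 size factors, library totals, no filter, a stricter filter (mean log2 CPM of at least 1), a replicate block and each library left out, with a GC and length correction added after the data were seen. The fit was tested on simulated data in which every gene had the same spread and no scarce gene was changed. That test therefore does not cover genes such as Usp18, Isg15 and Rsad2. Some listed genes are not reported here.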

Additional observations from a re-analysis of the deposited data

Results flagged for a closer look

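The share of fragments counted to no gene feature, which lies outside the gene counts that every comparison used, was higher at the later times. It averaged 9.15 ± 0.167% at 24h, against 5.47 ± 0.316% at 0h (SD, n = 2 each), and the libraries of the 2 times did not overlap. The ambiguous share averaged 5.06% at 24h, against 5.47% at 0h. Where these fragments lie was not analysed here, and their part in the changes of the members was not tested.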

How the results depend on the processing

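Counts of called members moved most where few were called. The 2 falls at 6h against 0h became 0 with DESeq2, with library totals, with no filter, with a stricter filter and with a replicate block, and 0 to 2 on leaving out each library. With library totals the rises at 12h against 0h numbered 5 (main analysis 3). With DESeq2 the rises at 24h against 0h numbered 1, the falls at 12h against 6h 1 and the falls at 24h against 12h 1. Leaving out each library gave 1 to 3 rises at 24h against 0h, 0 to 2 falls at 12h against 6h, and 0 to 2 rises and 0 to 2 falls at 24h against 12h. The low ends came without 0h replicate 1 at 24h and without 12h replicate 2 in both later steps. No called member changed direction. Tyk2 turned to -0.043 at 12h and -0.030 at 24h against 0h under the GC and length correction, and the cause was not tested.

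Same-numbered libraries showed little shared deviation, with correlations between -0.174 and 0.188 over 9038 genes. Such values cannot show whether they shared a mouse or a batch. With the replicate block, 7160 genes were called at 24h against 0h, where the fit without it called 7257. A library left alone at its time was assumed to vary like the others. Genes with few reads are limited by depth: for Isg15, Rsad2 and Usp18 a change of 2-fold could not be told from none in at least 1 comparison, and with 2 libraries per time small changes near the threshold are uncertain.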

Other observations

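Gene families within the wider list did not move as 1 block. These families were chosen after their values were seen, and their members lie side by side in the genome as close copies, so reads can be lost or misplaced among them. In the cluster on chromosome 3, Gbp7 was at 27.3 and 28.6 CPM at 24h, against 41.7 and 39.4 CPM at 0h, with a log2 fold change of -0.54 ± 0.07 (adjusted p = 2.03e-08), and Gbp5 at 2.08 and 1.9 CPM at 24h, against 3.77 and 2.94 CPM at 0h, with -0.75 ± 0.22 (adjusted p = 0.00388). Together with Gbp3, 3 of the 4 tested guanylate-binding genes thus fell, and Gbp2 passed in neither direction, beside 24.8% of all genes called lower at 24h against 0h. As the family was chosen for its values, this count is a description.

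On chromosome 11, 4 of 5 tested Schlafen genes rose, beside 26.1% of all genes called higher at 24h against 0h, again a description of a chosen family. Slfn2 was at 72.3 and 73.8 CPM at 24h, against 57.1 and 59.8 CPM at 0h (0.32 ± 0.05, adjusted p = 2.91e-06), Slfn8 at 10.9 and 9.52 CPM at 24h, against 8.89 and 7.18 CPM at 0h (0.35 ± 0.13, adjusted p = 0.0176) and Slfn9 at 37.2 and 37.1 CPM at 24h, against 30.6 and 33.4 CPM at 0h (0.21 ± 0.07, adjusted p = 0.00976). Slfn1 rose as given above, and Slfn5, at 1.48 and 1.33 CPM at 24h, against 1.36 and 0.598 CPM at 0h, passed in neither direction (adjusted p = 0.185).

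Within the OAS cluster on chromosome 5 the directions differed. Oas1g was at 1.13 and 1.09 CPM at 24h, against 0.151 and 0.368 CPM at 0h (2.05 ± 0.47, adjusted p = 0.000381), on few counts, while Oas1a fell and Oas1c was at 4.27 and 3.95 CPM at 24h, against 4.72 and 6.4 CPM at 0h (-0.44 ± 0.17, adjusted p = 0.0304). How the alternatives move the calls of Gbp5, Slfn2, Slfn8, Slfn9, Oas1c and Oas1g was not analysed here.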
